A study of Mus musculus with 6 samples.

Results

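The 40 genes described here mark neurons and their newborn precursors, the neuroblasts, and their levels were read in cultures sorted for oligodendrocyte precursor cells (OPCs), the proliferating glia that give rise to myelinating oligodendrocytes. They were taken as a fixed list of gene symbols, located in the GENCODE M21 annotation of mm10 and matched by position to the assembled transcripts, and they are 40 of the 30948 genes measured. The list holds 24 pan-neuronal genes, 6 transmitter genes and 10 genes of spinal neuron subtypes. The study has 3 libraries from Gde3 KO mice and 3 from Gde3 WT mice, all on the C57BL/6 background. Gdpd2 encodes GDE3, which cuts the lipid anchor that holds some proteins at the cell surface. The study's title concerns its control of OPC proliferation through a soluble receptor for CNTF. In every library, cells positive for A2B5, a ganglioside epitope of glial precursors, were pulled down with magnetic beads from the spinal cord of pups at postnatal day 0.5. They then grew for 16 h in medium with PDGF and CNTF at 10 ng/mL each, and with forskolin, an activator of adenylyl cyclase, at 5 µM. The labels give neither the number or sex of the pups behind a library nor whether libraries came from separate cultures, so a p-value reflects only how these libraries varied, which may be technical.

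Neuroblasts switch on proteins of the growing axon and of the microtubule and neurofilament skeleton, together with RNA-binding proteins of the ELAVL family that stabilise neuronal messages and steer their splicing. Mature neurons add vesicle release proteins and a transmitter, which the vesicular transporters and synthetic enzymes define. Spinal neuron subtypes are set by homeodomain and other transcription factors, and several of these factors also act in the sensory neurons of the dorsal root ganglia beside the cord. Many genes called neuronal are also transcribed at lower levels in OPCs and other glial precursors.

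The value given throughout is FPKM, fragments scaled for the transcript's length and the library's total, averaged over the exonic bases that belong to the gene alone. Replicates are given in the order 1, 2 and 3. The OPC markers Olig1 and Olig2 ranged over 356 to 518 and 83.3 to 279 FPKM across the 6 libraries, and the astrocyte marker Gfap over 32.1 to 401 FPKM. Exon 9 of Gdpd2 was assembled over 0% of its length in each KO library and over 100% in each WT library. Of its 16 exons, 8, 3 and 2 were at 0% in KO libraries, against 13, 0 and 0 in WT libraries, and WT replicate 1 held only exon 9 and 19.5% and 21.9% of exons 8 and 10. Gdpd2 had 0.667 to 1.78 FPKM in KO libraries, against 0, 2.79 and 2.85 FPKM in WT libraries. WT replicate 1 stood apart from the others. Its assembly held 56807 transcripts of 438 nt in median length, with 36.8% under 300 nt, while the other 5 held 32098 to 41319 transcripts of 1173 to 1830 nt in median length. It was also the only library with Xist, the RNA of the inactive X chromosome, at 15.4 FPKM, and Ddx3y of the Y chromosome was listed at 0 there and at 6.96 to 9.90 FPKM in the other 5. A listed 0 can be a failed assembly: Gapdh, used by every cell, had 60.4 to 116 FPKM in the other 5 libraries but 0 in WT replicate 1. In bulk RNA, fewer neurons and less RNA per neuron cannot be told apart.

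All 24 pan-neuronal genes were assembled in every library, whereas subtype factors were mostly at or near 0. Of the 40 genes, 29 averaged at least 1 FPKM over the 6 libraries and were tested: 24 pan-neuronal, 3 transmitter and 2 subtype genes. Chat, Lhx1 and Lhx5 were listed at 0 in all 6 libraries.

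**Figure D1:**
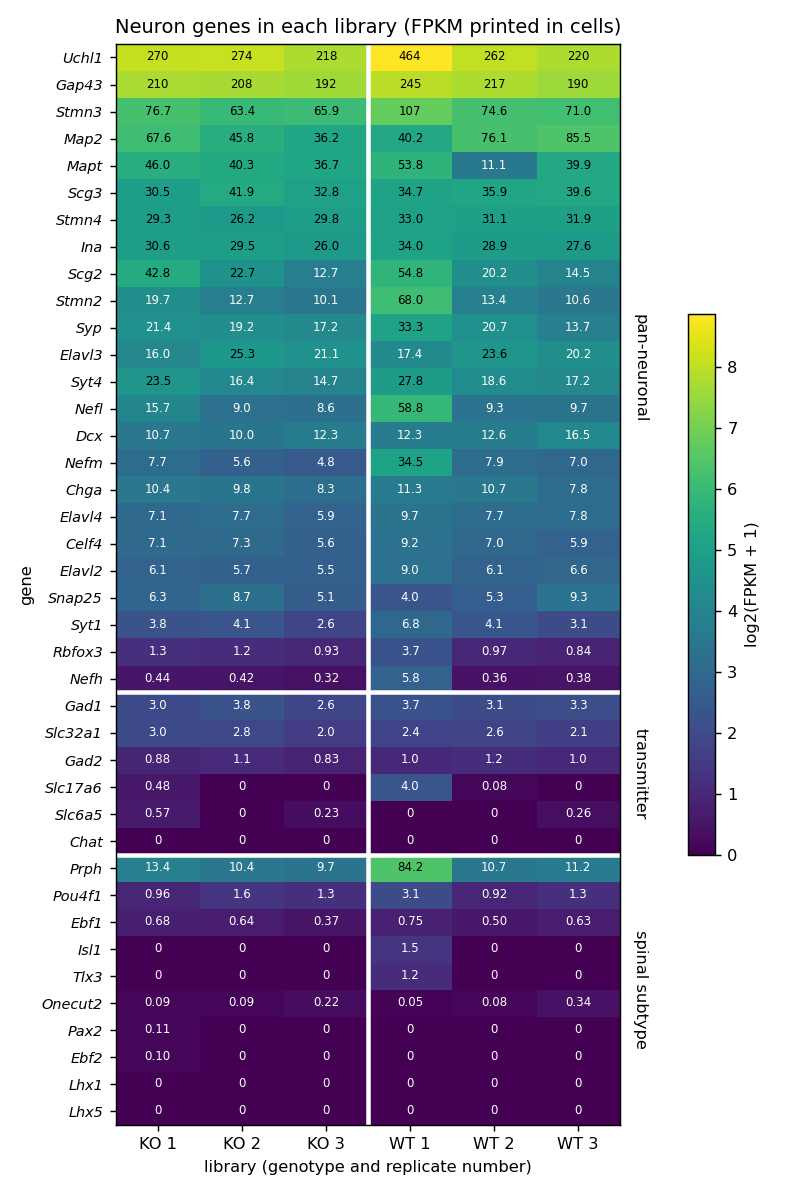
Heat map of the 40 genes (rows, ordered by mean within each class) in the 3 KO and then the 3 WT libraries (columns). Colour shows log2(FPKM + 1) and the FPKM is printed in each cell. Uchl1 and Gap43 were highest in every library, and Isl1 and Tlx3 were above 0 in WT replicate 1 alone.

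Genes of axon growth and protein turnover had the highest levels. Uchl1, a ubiquitin hydrolase abundant in neurons, had 270.3, 274 and 218 FPKM in KO libraries, against 464, 262 and 220.1 FPKM in WT libraries. Gap43, a growth cone protein also made by glial precursors, had 210.4, 208 and 192 FPKM in KO libraries, against 245, 217 and 189.5 FPKM in WT libraries. WT replicate 1 was the highest library for both genes. The other WT libraries lay within the KO range for Uchl1 and on either side of it for Gap43.

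The stathmins bind tubulin dimers and destabilise microtubules. Stmn3 had 76.7, 63.4 and 65.9 FPKM in KO libraries, against 107.4, 74.6 and 71.0 FPKM in WT libraries. Stmn4 had 29.3, 26.2 and 29.8 FPKM in KO libraries, against 33.0, 31.1 and 31.9 FPKM in WT libraries. Stmn2, which axons use for growth and repair, had 19.7, 12.7 and 10.1 FPKM in KO libraries, against 68.0, 13.4 and 10.6 FPKM in WT libraries. Every KO library was below every WT library for Stmn4, while the groups overlapped for Stmn2 and Stmn3. Dcx, the microtubule protein that defines migrating neuroblasts and lies on the X chromosome, had 10.7, 10.0 and 12.3 FPKM in KO libraries, against 12.3, 12.6 and 16.5 FPKM in WT libraries. KO replicate 3 just reached the lowest WT library.

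Map2 and Mapt encode microtubule-associated proteins of dendrites and axons. Map2 had 67.6, 45.8 and 36.2 FPKM in KO libraries, against 40.2, 76.1 and 85.5 FPKM in WT libraries. Mapt, which encodes tau, had 46.05, 40.3 and 36.7 FPKM in KO libraries, against 53.8, 11.1 and 39.9 FPKM in WT libraries. These differences moved with how much of each gene was assembled. The last Map2 exon of 3792 nt was covered by assembled transcripts to 100%, 0.844% and 0.712% in KO libraries, against 2.90%, 100% and 100% in WT libraries, and the 3 libraries that held it had the highest Map2 values. The last Mapt exon of 4119 nt was covered to 99.2% to 100% in KO libraries, against 99.5%, 1.17% and 100% in WT libraries, and WT replicate 2, where it was missing, had the lowest Mapt value. The KO minus WT difference of log2(FPKM + 1) was -0.40 for Map2 and 0.48 for Mapt. When only assembled bases were averaged it was -0.19 for Map2 and -0.23 for Mapt. The part of assembly in the levels was not tested.

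The forms of tau and MAP2 differ by an exon of 93 bases that encodes a microtubule-binding repeat. Tau with this exon has an extra repeat, and the neonatal rodent brain is known for the form that skips it. Both forms of both genes were assembled in every library. Transcripts that joined the Mapt repeat exon on both sides held 71.6%, 60.0% and 84.1% of the FPKM of the joined and skipping forms in KO libraries, against 47.8%, 62.4% and 73.6% in WT libraries. The shares averaged 71.9% ± 12.02 in KO libraries and 61.3% ± 12.9 in WT libraries (SD, n = 3 each), and the groups overlapped. For Map2 the shares were 54.5%, 38.1% and 60.4% in KO libraries, against 51.9%, 69.3% and 62.8% in WT libraries. They averaged 51.0% ± 11.6 in KO libraries and 61.3% ± 8.78 in WT libraries (SD, n = 3 each), and these groups overlapped too. The assembler estimates how fragments divide between forms, no test was run on the shares, and their counting error is unknown because the assemblies hold no counts.

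Other tau and MAP2 exons were mostly skipped. Both 87-base exons that encode the N-terminal inserts of tau were assembled over 0% of their length in all 6 libraries, although transcripts skipping them had 44.5 to 56.2 FPKM in KO libraries and 48.7 to 67.1 FPKM in WT libraries. Exon 4A of 759 bases, which marks the large tau of peripheral neurons, was also at 0% in all 6. The longest coding exon of Map2, with 3741 bases, distinguishes the high molecular weight protein of dendrites from the short juvenile form. It was joined on both sides only in WT replicate 3, where it held 20.9% of the FPKM. Pieces of it covered 8.53%, 48.8% and 69.0% of its length in KO libraries, against 41.5% and 22.6% in WT replicates 1 and 2.

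The ELAVL genes were at low to moderate levels. Elavl3 had 16.0, 25.3 and 21.1 FPKM in KO libraries, against 17.4, 23.6 and 20.2 FPKM in WT libraries. Elavl2 had 6.13, 5.75 and 5.50 FPKM in KO libraries, against 8.98, 6.07 and 6.65 FPKM in WT libraries. Elavl4 had 7.07, 7.67 and 5.91 FPKM in KO libraries, against 9.75, 7.74 and 7.77 FPKM in WT libraries. Every KO library was below every WT library for Elavl4, by a narrow margin, and the groups overlapped for the other two.

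Elavl2 and Elavl4 share a short alternative exon in the linker before the last RNA-binding domain, shown because its use separated the paralogues. Capitals mark the bases that differ. The Elavl2 exon lies at chr4:91254141-91254179 and the Elavl4 exon at chr4:110209740-110209778, both on the minus strand of mm10, from the GENCODE M21 transcripts.
Elavl2 exon: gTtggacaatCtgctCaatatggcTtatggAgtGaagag
Elavl4 exon: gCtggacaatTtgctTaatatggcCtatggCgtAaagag
The exons have 39 bases each, differ at 6 and are 84.6% identical. The Elavl2 exon was joined in 50.3%, 47.8% and 54.1% of the FPKM in KO libraries, against 48.6%, 42.5% and 45.8% in WT libraries. The Elavl4 exon was joined in 100%, 88.5% and 100% in KO libraries, against 85.7% and 100% in WT replicates 1 and 3, and WT replicate 2 gave no value. The lowest Elavl4 share was above the highest Elavl2 share, while KO and WT libraries overlapped for each gene.

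Stmn4 had an 81-base exon with a share of 18.9%, 13.9% and 24.0% in KO libraries, against 100%, 20.1% and 24.4% in WT libraries. WT replicate 1, with its short transcripts, was the library without a skipping form, and the other 5 ranged from 13.9% to 24.4%.

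**Figure D2:**
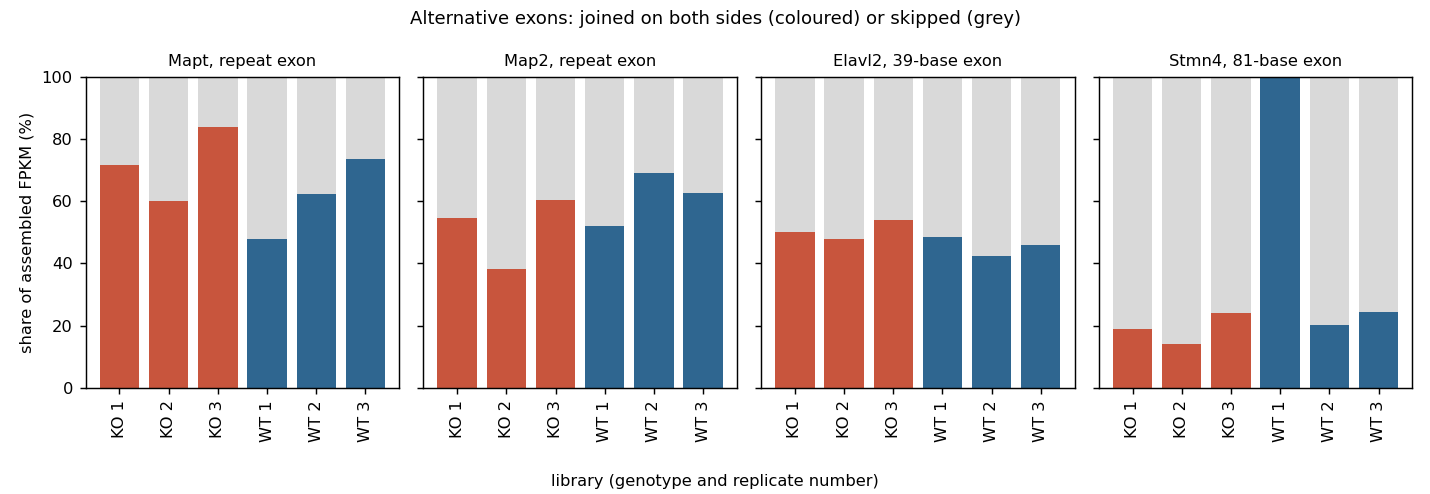
Share of the FPKM of transcripts that joined (coloured) or skipped (grey) an alternative exon, in percent, for Mapt, Map2, Elavl2 and Stmn4 in the 3 KO and then the 3 WT libraries. Both forms were present in every library except for Stmn4 in WT replicate 1, at 100%.

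Genes of vesicles and release were low to moderate. Syt4, a vesicle protein of the synaptotagmin family that does not bind calcium in the usual way, had 23.5, 16.4 and 14.7 FPKM in KO libraries, against 27.8, 18.6 and 17.2 FPKM in WT libraries. Scg2, a secretogranin stored in dense-core granules, had 42.8, 22.7 and 12.7 FPKM in KO libraries, against 54.8, 20.2 and 14.5 FPKM in WT libraries. In both genes the replicate 1 library was the highest of its genotype. The vesicle membrane protein Syp averaged 19.3 ± 2.103 FPKM in KO libraries and 22.6 ± 9.96 FPKM in WT libraries, and the calcium sensor Syt1 averaged 3.49 ± 0.791 FPKM in KO libraries and 4.67 ± 1.93 FPKM in WT libraries (SD, n = 3 each). The granule proteins Scg3 and Chga averaged 35.0 ± 6.02 and 9.49 ± 1.06 FPKM in KO libraries, and 36.7 ± 2.585 and 9.94 ± 1.86 FPKM in WT libraries (SD, n = 3 each). The neurofilament protein Ina and the splicing regulator Celf4 averaged 28.7 ± 2.44 and 6.65 ± 0.950 FPKM in KO libraries, and 30.1 ± 3.37 and 7.38 ± 1.69 FPKM in WT libraries (SD, n = 3 each).

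Snap25, a membrane fusion protein, averaged 6.73 ± 1.82 FPKM in KO libraries and 6.201 ± 2.77 FPKM in WT libraries (SD, n = 3 each). It carries 2 mutually exclusive exons, of which the upstream form is known to precede the downstream form in development. They are shown because which of them was joined differed between libraries, with the bases that differ in capitals. They lie at chr2:136769743-136769860 and chr2:136770057-136770174 on the plus strand of mm10, from the GENCODE M21 transcripts.
Snap25 upstream exon: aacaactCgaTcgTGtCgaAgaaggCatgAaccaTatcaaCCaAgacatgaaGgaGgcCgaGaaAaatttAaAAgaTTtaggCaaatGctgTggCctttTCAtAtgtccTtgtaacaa
Snap25 downstream exon: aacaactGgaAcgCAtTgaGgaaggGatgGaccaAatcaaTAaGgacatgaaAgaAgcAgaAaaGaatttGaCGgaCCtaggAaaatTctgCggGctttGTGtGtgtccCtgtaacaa
The exons have 118 bases each, differ at 31 and are 73.7% identical. The upstream exon was joined on both sides in KO replicate 2, at 6.00 FPKM, and in WT replicate 3, at 8.68 FPKM. The downstream exon was joined on both sides in KO replicate 1 alone, at 3.40 FPKM. In the other 3 libraries neither was joined on both sides. Assembled transcripts covered the upstream exon to 96.6%, 100% and 97.5% in KO libraries, against 0%, 100% and 100% in WT libraries. The downstream exon was covered to 100%, 94.1% and 0% in KO libraries, against 91.5%, 98.3% and 95.8% in WT libraries. Most libraries thus held both exons, and the joins alone do not give which form was used.

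Over the 6 libraries Gad1, Slc32a1 and Gad2, all of inhibitory neurons, had the highest means of the transmitter genes, while in WT replicate 1 the glutamate transporter Slc17a6 was highest. Gad1, which makes GABA, had 2.99, 3.82 and 2.58 FPKM in KO libraries, against 3.74, 3.08 and 3.26 FPKM in WT libraries. Slc32a1, the vesicular transporter of GABA and glycine, had 3.02, 2.79 and 2.04 FPKM in KO libraries, against 2.45, 2.56 and 2.1005 FPKM in WT libraries. Gad2, the second GABA enzyme, had 0.876, 1.07 and 0.827 FPKM in KO libraries, against 1.03, 1.22 and 1.02 FPKM in WT libraries. The groups overlapped for each of the 3 genes. Slc17a6, the vesicular glutamate transporter VGLUT2 of spinal and sensory neurons, had 0.477 FPKM in KO replicate 1 and was listed at 0 in KO replicates 2 and 3, against 4.02, 0.0844 and 0 FPKM in WT libraries. Slc6a5, the glycine transporter of glycinergic neurons, was at 0 to 0.572 FPKM in KO libraries and 0 to 0.260 FPKM in WT libraries, and Chat, the enzyme of acetylcholine synthesis, was listed at 0 in all.

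Among the subtype genes, Prph and Pou4f1 averaged at least 1 FPKM. Prph, an intermediate filament of neurons whose axons leave the central nervous system, had 13.4, 10.4 and 9.68 FPKM in KO libraries, against 84.2, 10.7 and 11.2 FPKM in WT libraries. Pou4f1, a factor of sensory and dorsal spinal neurons, had 0.956, 1.64 and 1.28 FPKM in KO libraries, against 3.07, 0.919 and 1.34 FPKM in WT libraries. WT replicate 1 was highest for both, and the other 5 libraries overlapped between the genotypes. Isl1, a factor of motor and sensory neurons, and Tlx3, a factor of excitatory dorsal neurons and of sensory neurons, had 1.51 and 1.17 FPKM in WT replicate 1 and were listed at 0 in the other 5 libraries. Ebf1 was at 0.370 to 0.685 FPKM in KO libraries and 0.501 to 0.752 FPKM in WT libraries, and Onecut2, Pax2 and Ebf2 did not exceed 0.337 FPKM in any library.

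The comparison of genotypes asked whether the neuron genes differed between KO and WT cultures. None of the 29 tested genes was called by limma on log2(FPKM + 1) at a Benjamini-Hochberg adjusted p under 0.05, with a lowest adjusted p of 0.9999. Over all 12040 genes tested, the same fit called 0% higher and 0.00831%, or 1 gene, lower in KO. At an unadjusted limma p under 0.05 there were 0 of the 29 and 1.62% of all genes. The replicate block, which pairs libraries by number, called 0 of the 29 and 0% of all genes, and put 2 of the 29 (Dcx and Syt4) and 4.24% of all genes at an unadjusted p under 0.05.

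Of the 29 tested genes, 4 had a positive and 25 a negative KO minus WT difference, against 48.6% positive and 51.4% negative among all genes tested. The median log2 difference was -0.20 for the 29, -0.22 for the 24 pan-neuronal genes, -0.09 for the 3 transmitter genes and -0.57 for the 2 subtype genes, beside -0.0055 for all genes. Without WT replicate 1, 14 were positive and 14 negative of the 28 that still averaged at least 1 FPKM, with a median of 0.0017. The medians were -0.0016 for pan-neuronal, -0.02 for transmitter and 0.06 for subtype genes. Over all genes 5685 were then positive and 6281 negative, with a median of -0.01. Within the replicate pairs, 26 of the 29 were lower in KO in pair 1, 16 in pair 2 and 24 in pair 3, with median log2 differences of -0.34, -0.0115 and -0.12, beside -0.035, 0 and 0.0215 over all genes. With pair 1 left out, 6 of 27 were positive and 21 negative, with a median of -0.06, a lean the same way at a smaller size. Over all genes 6317 were then positive and 5595 negative, with a median of 0.012.

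The smallest unadjusted p belonged to Dcx, whose log2 difference was -0.29 with a standard error of 0.15 (adjusted p = 0.9999, limma). Stmn4 and Elavl4, for which KO and WT libraries did not overlap, had log2 differences of -0.17 with a standard error of 0.099 and -0.26 with a standard error of 0.145. Non-overlap with KO below WT held for these 2 of the 29 and for 3.03% of all genes, and with KO above WT for 0 of the 29 and 2.03% of all genes. Nefm, Prph and Nefh had the largest negative differences of the 29, of -0.98, -0.93 and -0.75, with standard errors of 0.59, 0.78 and 0.65. Without WT replicate 1 the difference was -0.29 for Nefm and 0.01 for Prph, and Nefh was then under the level filter. Dcx kept -0.36 and Stmn4 -0.14 without it. Stmn4 was assembled over 94.9%, 59.2% and 62.0% of its own bases in KO libraries, against 92.2%, 95.5% and 96.2% in WT libraries, and the part of this in its difference was not tested. For Stmn4 the sign turned, to 0.25, when only assembled bases were averaged. FPKM summed over transcripts put Dcx at 0.53 and Stmn4 at 0.33.

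**Figure D3:**
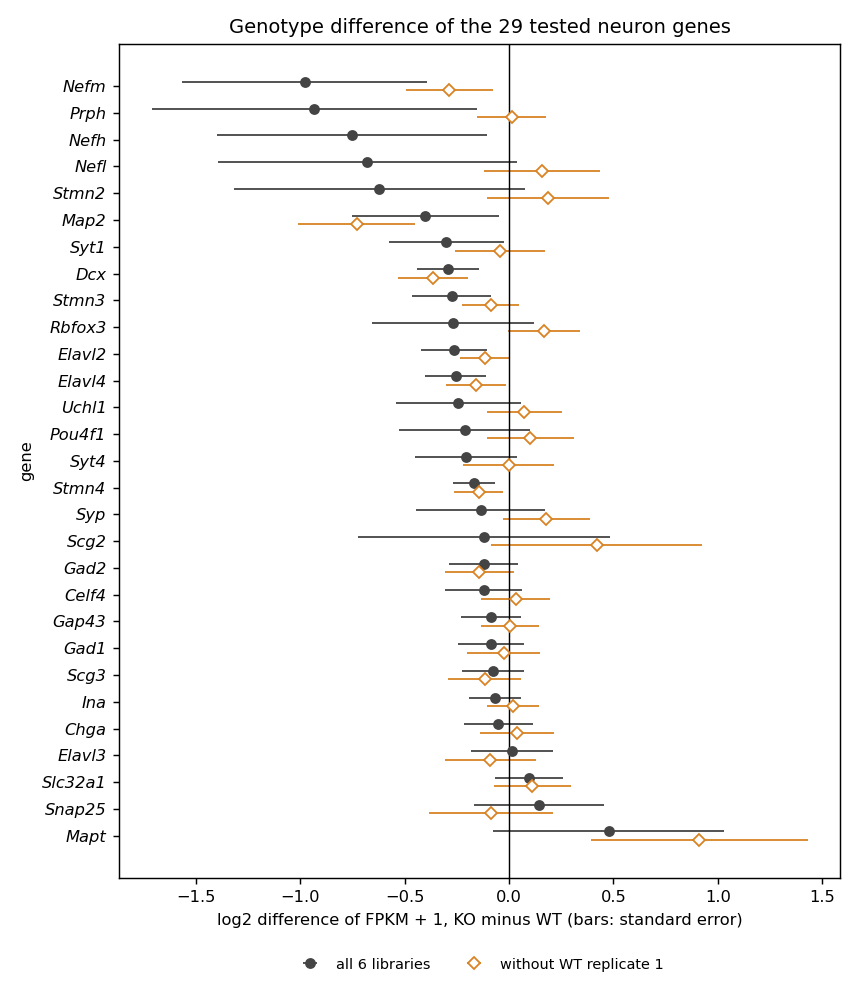
KO minus WT difference of log2(FPKM + 1) for the 29 tested genes, with the limma standard error as bars, from all 6 libraries (filled circles) and without WT replicate 1 (open diamonds). Nefh has no second point because it no longer averaged 1 FPKM. With all libraries 25 of 29 points lie below 0, and without WT replicate 1 14 of 28 do.

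WT replicate 1 was the highest of the 6 libraries for 21 of the 29 tested genes, against 27.0% of all genes tested. It exceeded the highest of the other 5 by more than 2 times for 6 of the 29, against 0.797% of all genes. The same count over all genes was 0.166%, 0.150% and 0.424% for KO replicates 1 to 3, against 0.224% and 0.174% for WT replicates 2 and 3. Nefh passed the level filter only through this library, averaging 1.29 FPKM with it and 0.385 FPKM without it. Over genes that averaged at least 1 FPKM in the other 5 libraries, a filter chosen after seeing the data, WT replicate 1 was highest for 20 of 28 and for 26.4% of all genes, and more than 2 times the next for 5 of 28 and 0.522% of all genes. The 6 genes were the neurofilament subunits Nefl, Nefm and Nefh, and Prph, Stmn2 and Rbfox3, of which all but Stmn2 and Rbfox3 form intermediate filaments.

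Nefl, the light subunit (ENSMUSG00000022055.7, chromosome 14, 68083863 to 68089095, plus strand, mm10), had 15.7, 8.96 and 8.57 FPKM in KO libraries, against 58.8, 9.26 and 9.67 FPKM in WT libraries. Nefm, the medium subunit (ENSMUSG00000022054.11, chromosome 14, 68082590 to 68124846, minus strand, mm10), had 7.68, 5.60 and 4.76 FPKM in KO libraries, against 34.5, 7.91 and 6.97 FPKM in WT libraries. Nefh, the heavy subunit of mature axons (ENSMUSG00000020396.8, chromosome 11, 4938754 to 4948064, minus strand, mm10), had 0.441, 0.418 and 0.322 FPKM in KO libraries, against 5.83, 0.364 and 0.379 FPKM in WT libraries. The annotated spans of Nefl and Nefm overlap, and only bases that a gene holds alone were counted. WT replicate 1 was above the next library by 3.74 times for Nefl, 4.36 times for Nefm and 13.2 times for Nefh. Prph (ENSMUSG00000023484.14, chromosome 15, 99055174 to 99058978, plus strand, mm10) stood 6.27 times above the next library, and Stmn2 3.45 times. Rbfox3, the splicing factor known as the NeuN antigen, had 1.33, 1.17 and 0.928 FPKM in KO libraries, against 3.71, 0.966 and 0.839 FPKM in WT libraries, or 2.78 times the next library.

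Genes of peripheral sensory neurons were highest in the same library. Of 18 such genes, 15 were highest in WT replicate 1 and 1 was listed at 0 in all libraries. Most were near the floor: 8 were tested, and 5 averaged at least 1 FPKM without WT replicate 1. Of the 8 tested, 7 were highest in WT replicate 1, against 27.0% of all genes tested. The summed level of the 18 was 36.0, 19.1 and 27.4 FPKM in KO libraries, against 101.7, 28.8 and 27.5 FPKM in WT libraries. P2rx3, an ATP-gated channel of pain neurons, had 1.12, 0.845 and 0.510 FPKM in KO libraries, against 11.96, 0.816 and 0.389 FPKM in WT libraries. Avil, an actin-binding protein of sensory neurons, had 1.66, 0.499 and 0.593 FPKM in KO libraries, against 11.4, 1.00 and 0.610 FPKM in WT libraries. Both were named after their values were seen. By mean level the list was led by Ntrk2 and Ntrk3, receptors that glia also carry, at 7.01 to 16.4 and 5.20 to 6.52 FPKM over the 6 libraries, and by Calca, the gene of the peptide CGRP, at 0.551 to 4.46 FPKM in KO libraries and 0.338 to 22.4 FPKM in WT libraries. Th and Runx3, which mark other sensory neurons, were listed at 0 in WT replicate 1. What part these genes' cells had in the neuron gene levels of that library was not tested.

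**Figure D4:**
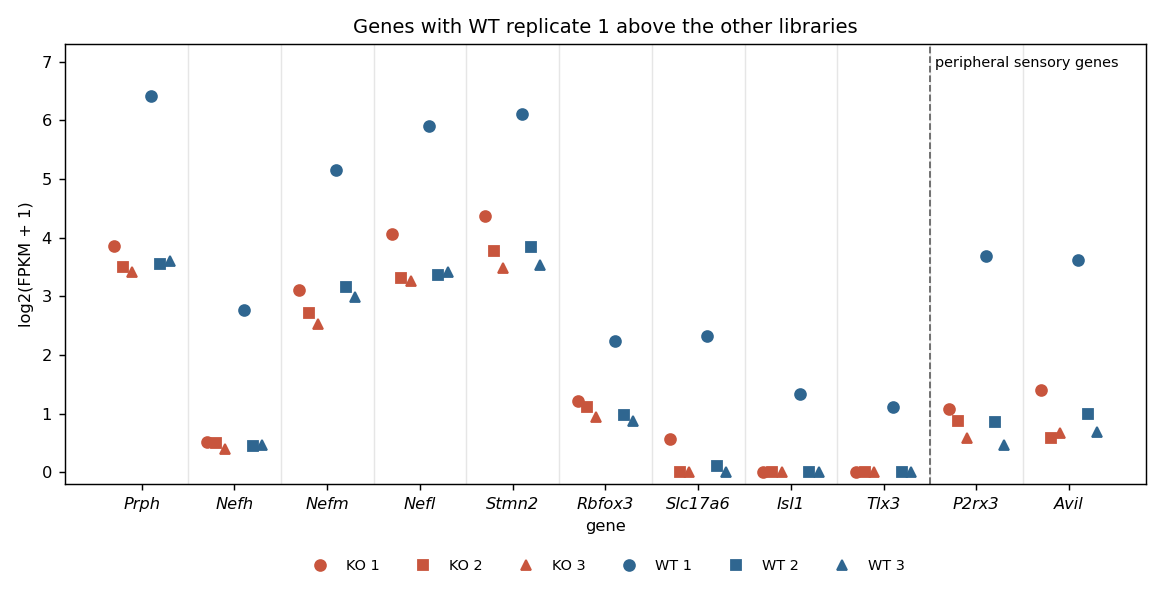
log2(FPKM + 1) of 9 neuron genes and, right of the dashed line, 2 peripheral sensory genes in the KO (red) and WT (blue) libraries; circles are replicate 1, squares replicate 2 and triangles replicate 3. The genes were chosen for their high level in WT replicate 1, so its circle is above every other point for each gene. Prph reaches 84.2 FPKM there.

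The libraries also split by a number inside the labels' identifiers, which is 3 for both replicate 1 libraries and 4 for the others; what it stands for is not stated. In a limma fit with genotype as a covariate, 0 of the 29 genes were called for this number, with a lowest adjusted p of 0.0532, while 0.349% of all genes were called higher and 1.76% lower in the libraries numbered 3. These 254 calls over all genes were 5 to 46 with any single library left out, 7 with FPKM summed over transcripts and 8 with no length minimum. At an unadjusted p under 0.05 there were 9 of the 29 and 24.2% of all genes. Both replicate 1 libraries were above the other 4 for 11 of the 29, against 18.7% of all genes. They were below the other 4 for 1, Elavl3, against 21.3% of all genes. Nefh and Rbfox3 averaged under 1 FPKM over the other 4 libraries, and passed the level filter through the replicate 1 libraries. The log2 difference, libraries numbered 3 minus those numbered 4, was above 0 for 23 of the 29, against 50.7% of all genes, and below 0 for 6, against 49.3%, with a median of 0.29.

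Syt4 and Scg2 had the smallest p, with log2 differences of 0.59 with a standard error of 0.092 (adjusted p = 0.0532, limma) and 1.45 with a standard error of 0.27 (adjusted p = 0.0682, limma). Scg2 had 42.8 FPKM in KO replicate 1 and 54.8 FPKM in WT replicate 1, against 12.7 to 22.7 FPKM in the other 4 libraries. Without KO replicate 1 the contrast sets WT replicate 1 alone against the others, and the fit assumes that this lone library varies like the rest. Nefl and Prph then passed the threshold, at 2.51 and 2.83 (adjusted p = 0.0319 and 0.0297, limma), as did 0.357% of all genes, so these values describe the excess in WT replicate 1 and are no test of the number. Elavl3 had a difference of -0.41 with a standard error of 0.13 (adjusted p = 0.149, limma).

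Other genes of secretory granules were set beside Scg2; the list shares Calca and Tac1 with the sensory list. Among 17 tested granule genes, both replicate 1 libraries were above the other 4 for 14, against 18.7% of all genes. At an unadjusted limma p under 0.05 for the number there were 14, against 24.2% of all genes. Over the other 4 libraries only 13 granule genes averaged at least 1 FPKM, so some passed the level filter through the replicate 1 libraries. The counts and the median for the number are partly set by this filter and only describe the list. They were not redone over the 13. The 17 had a median log2 difference for the number of 0.82, beside 0.0052 over all genes, and 1 was called. That gene was Vgf, a granule peptide precursor induced by neurotrophins, with 208, 89.8 and 67.7 FPKM in KO libraries, against 233, 66.1 and 49.1 FPKM in WT libraries (adjusted p = 0.0424, limma). Cpe, a peptide-processing enzyme also made by glia, ranged from 181 to 260.02 FPKM in KO libraries and 193 to 261 FPKM in WT libraries. Scg5, a chaperone of a prohormone convertase, ranged from 21.7 to 30.0 FPKM in KO libraries and 20.5 to 33.2 FPKM in WT libraries. For KO against WT the granule genes had 0 calls, 4 positive and 13 negative differences and a median of -0.11. Without WT replicate 1 the lean turned, with 13 positive, 3 negative and a median of 0.14. That fit kept KO replicate 1, which was also high for most of these genes. With the replicate 1 pair left out, 5 were positive and 8 negative, with a median of -0.015.

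**Figure D5:**
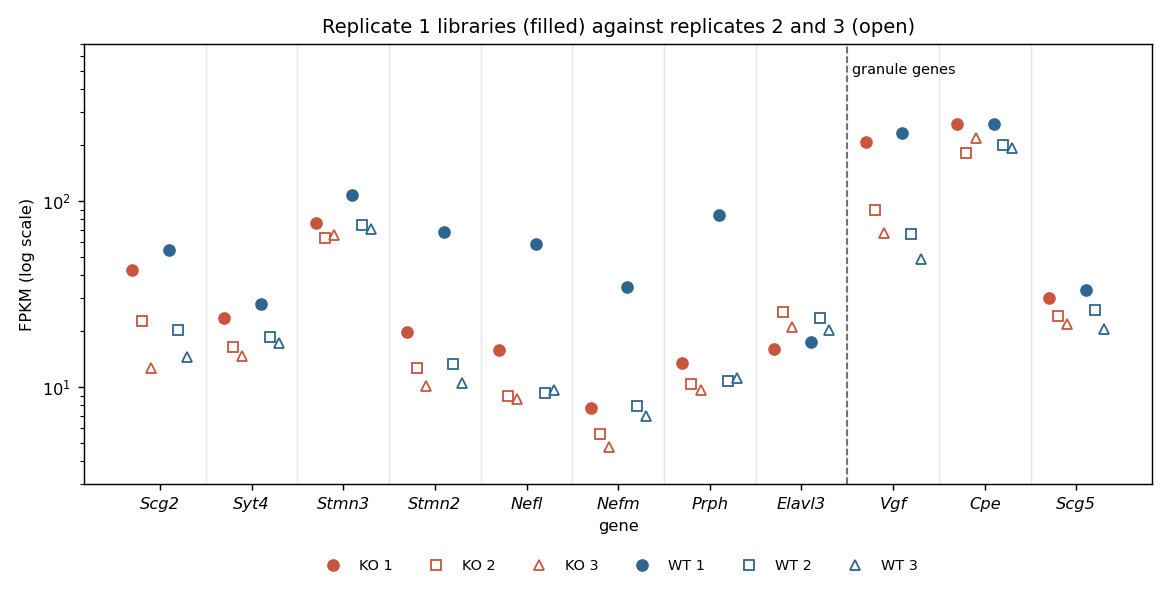
FPKM on a log axis of the 8 neuron genes with the smallest p for the identifier number and, right of the dashed line, 3 granule genes, in the KO (red) and WT (blue) libraries; filled circles are the replicate 1 libraries, open squares replicate 2 and open triangles replicate 3. Scg2, Syt4 and Vgf were high in both replicate 1 libraries, while Prph reached 84.2 FPKM in WT replicate 1 and 13.4 FPKM in KO replicate 1.

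The promoters of Scg2 and Chga are shown because the culture medium held forskolin, which raises cyclic AMP, and cyclic AMP response elements are short known motifs. Capitals mark TGACGTCA in Scg2, at position -68 from the RefSeq gene start, and the variant TGACGTAA in Chga, at position -44 from it. GENCODE M21 starts Scg2 farther upstream, so the Scg2 motif lies inside the gene as that annotation draws it. Both strands were searched and the motifs do not overlap. The sequences are from RefSeq on GRCm38.p6, at chr1:79439977-79440276 on the minus strand for Scg2 and chr12:102554691-102554990 on the plus strand for Chga.
Scg2 promoter: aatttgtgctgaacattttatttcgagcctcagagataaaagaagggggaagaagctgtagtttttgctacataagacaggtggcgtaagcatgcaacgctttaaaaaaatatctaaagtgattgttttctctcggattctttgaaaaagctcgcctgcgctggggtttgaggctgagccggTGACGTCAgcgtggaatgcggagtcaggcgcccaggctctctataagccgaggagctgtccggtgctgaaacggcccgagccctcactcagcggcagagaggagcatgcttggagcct
Chga promoter: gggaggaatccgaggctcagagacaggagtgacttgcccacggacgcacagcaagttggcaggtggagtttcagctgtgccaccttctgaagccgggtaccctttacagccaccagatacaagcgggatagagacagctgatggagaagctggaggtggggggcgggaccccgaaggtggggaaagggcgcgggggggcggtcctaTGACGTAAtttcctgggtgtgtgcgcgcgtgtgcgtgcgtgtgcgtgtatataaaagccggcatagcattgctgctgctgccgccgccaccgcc
The table of promoters held 27 of the 40 genes, with 42 promoters. TGACGTCA was in 1 of these 42 promoters (2.38%), that of Scg2, and in 1.79% of all 32851 promoters of this length. TGACGTAA was in 1 of the 42 (2.38%), that of Chga, and in 0.499% of all promoters. The 16 granule genes in the table had 19 promoters, of which 4 (21.1%) held TGACGTCA (Cartpt, Chgb, Pcsk1 and Sst). Chga had 10.4, 9.80 and 8.31 FPKM in KO libraries, against 11.3, 10.7 and 7.82 FPKM in WT libraries, so the replicate 1 libraries were both above the other 4 for Scg2 and not for Chga. A match is a description of the letters, and no untreated culture was analysed here.

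Of 32 further neuroblast genes, 22 were tested for KO against WT, with 0 called, 3 positive, 19 negative and a median log2 difference of -0.13, which was -0.04 without WT replicate 1. Dpysl3 and Cd24a, an axon growth protein and a surface protein of neuroblasts, ranged from 86.8 to 119 and 61.6 to 89.6 FPKM in KO libraries, and from 101.3 to 129 and 78.05 to 103 FPKM in WT libraries. Tubb3, the neuronal tubulin, ranged from 64.2 to 76.2 FPKM in KO libraries and 61.6 to 90.5 FPKM in WT libraries. All 8 genes listed at 0 in every library were proneural or early neuronal transcription factors: Neurod1, Neurod2, Neurod4, Neurod6, Neurog1, Neurog2, Nhlh1 and Nhlh2.

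Synaptic vesicle genes numbered 34, of which 26 were tested, 0 were called, 7 were positive and 19 negative, with a median of -0.13 that was 0.04 without WT replicate 1. That library was the highest for 21 of the 26, against 27.0% of all genes tested. The vacuolar pump subunit Atp6v0c, Syt11 and the fusion protein Vamp2 were highest in mean level, at 118 to 341, 82.8 to 106 and 35.2 to 58.8 FPKM over the 6 libraries. Of 33 further spinal identity factors, 16 were listed at 0 in all libraries, among them the motor neuron factors Mnx1 and Lhx3, and 6 were tested with 0 called and a median of -0.09, or -0.14 without WT replicate 1. Nfib, which is also used outside neurons, and Tal1 were at 14.1 to 18.6 and 1.77 to 2.92 FPKM over the 6 libraries. Isl2, a partner of Isl1, had 3.26 FPKM in WT replicate 1 and was listed at 0 in the other 5.

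REST, which silences neuronal genes in other cells, acts with a complex of 13 genes examined here. All 13 were tested, 0 were called, 7 were positive and 6 negative, with a median log2 difference of 0.0053, or -0.03 without WT replicate 1. Ctdsp2, Hdac1 and Kdm1a were the most abundant, at 52.6 to 59.5, 52.7 to 58.1 and 46.9 to 54.7 FPKM over the 6 libraries.

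Markers of other cells in the cultures were set beside these genes. The 20 OPC markers were led by Olig1, Olig2 and Sox10, and the 13 astrocyte markers by Fabp7, Gfap and Sparcl1. Their median KO minus WT differences were -0.16 and 0.14, with 0 called. Without WT replicate 1 the medians were -0.11 and -0.09, with KO replicate 1 still in the fit. Without the replicate 1 pair they were -0.16 and 0.09. Along the identifier number the astrocyte markers ran against the neuron and granule genes, with a median of -0.62. Of 13, 9 were lower in the libraries numbered 3, 8 were below the other 4 in both and 3 were called lower. The shares of all genes were 49.3%, 21.3% and 1.76%, and the calls over all genes fell to 5 to 46 with a library left out. Gfap had a log2 difference of -2.60 for the number (adjusted p = 0.04999, limma). The 10 tested of 14 microglia markers, led by Tyrobp, Fcer1g and C1qc, were all positive with a median of 0.80 and 0 called; their summed level was 125, 137 and 212 FPKM in KO libraries, against 108, 70.3 and 88.2 FPKM in WT libraries. Vascular and mesenchymal markers, led by Col3a1, Col1a1 and Col1a2, had a median of 0.03 over 11 tested genes, and 9 tested Schwann and neural crest markers, led by Gap43, which is also in the list above, and Sox2, had a median of -0.10, with 0 called in both; without WT replicate 1 the medians were -0.02 and -0.01. Whether the makeup of the cultures had a part in the neuron gene levels was not tested.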

How the data were processed

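RNA of cultured OPCs was sequenced in 3 KO and 3 WT libraries. Per the submitters' processing notes, the build was mm10 and the tools were TopHat2 2.1.1, Cuffdiff 2.2.1, Cufflinks 2.2.1 and FastQC; other settings are not given in the sources used here. The authors deposited 1 transcript assembly per library, with exons and, in text attributes, coverage and FPKM. There were no read counts, so the number of reads is unknown and no counting interval can be given. Relative depth, as the median ratio of coverage to FPKM, was set to 1 in WT replicate 3. It was 0.934, 0.882 and 0.988 in KO libraries, against 0.759 and 0.960 in WT replicates 1 and 2.

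Transcripts carry no gene names and were matched by position to GENCODE M21. FPKM was summed over transcripts of at least 300 nt that had the gene's strand or none, and averaged over exonic bases that no other gene shares (at least 200 bases). A listed 0 means that no assembled transcript of at least 300 nt covered those bases, and shorter ones can be present. Genes averaging at least 1 FPKM over the 6 libraries were tested with limma 3.58.1 (R 4.3.3; empirical Bayes with trend, two-sided) on log2(FPKM + 1), with Benjamini-Hochberg adjustment over 12040 genes; fold changes on this scale understate those of low genes. The fit held genotype only. Replicate numbers come from the titles; same-numbered KO and WT libraries had deviations from their group means that correlated at 0.370, 0.199 and 0.294, so a fit with the number as a block was added as an alternative. The tests were tried on simulated data.

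Values in every library are given for the 8 tested genes with the smallest p for genotype, the 8 with the smallest p for the identifier number, the 5 of highest mean and transmitter and subtype genes averaging at least 1 FPKM, and up to 3 of highest mean are named from each other list; some items that this rule names are not reported here. Exon forms use transcripts of any length. The genes and lists were chosen with earlier results of these data known. Drgx, in the sensory and spinal lists, had no value under that symbol and was left out of both. Under its older symbol Prrxl1 it had 0.145, 0 and 0 FPKM in KO libraries, against 2.82, 0 and 0 FPKM in WT libraries.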

Additional observations from a re-analysis of the deposited data

How the results depend on the processing

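No neuron gene was called for KO against WT under any of 18 alternatives; the lowest limma adjusted p among the genes given in every library was 0.721. Their median log2 difference ranged from -0.30 to 0.0017, the upper end without WT replicate 1. The count over all genes, 1 as reported, was 0 with a pseudocount of 0.1 or of 5, a filter at a mean of 5 FPKM, FPKM summed over transcripts or the replicate block, 2 with assembled bases only, 27 without the replicate 1 pair, and 1 to 17 with a library left out. The replicate block changed no call of a neuron gene. The count for the identifier number, 254 as reported, was 7 with FPKM summed over transcripts, 69 with assembled bases only, 8 with no length minimum, 166 with quantile scaling and 5 to 46 with a library left out; for neuron genes the leave-out range was 0 to 2.

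Signs turned, with FPKM summed over transcripts, for Dcx (0.53), Stmn4 (0.33), Map2 (0.25) and Mapt (-0.22). With assembled bases only they turned for Stmn4 (0.25), Elavl3 (-0.10) and Mapt (-0.23), with no length minimum for Slc32a1 (-0.0334), and without the replicate 1 pair for Uchl1 (0.025) and Pou4f1 (0.21). With a library left out, the log2 difference ranged from -0.13 to 0.18 for Elavl3, -0.55 to 0.42 for Scg2, -0.20 to 0.0123 for Gad1, -1.42 to 0.0122 for Prph, -1.11 to 0.16 for Nefl, -1.10 to 0.19 for Stmn2, -0.46 to 0.0735 for Uchl1, -0.18 to 0.0049 for Gap43, -0.44 to 0.10 for Pou4f1 and -0.18 to 0.91 for Mapt. None of these values passed the threshold, and the cause was not tested. The number of reads behind the values is unknown.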
